A study of Mus musculus with 7 samples.

Results

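Entry into mitosis is driven by Cdk1, a kinase that is active only when bound to an A or B type cyclin. Wee1 holds the complex inactive by phosphorylating Cdk1, the Cdc25 phosphatases remove that phosphate, and Plk1 acts on both sides of the balance. Cdc20 then directs the anaphase-promoting complex, a ubiquitin ligase, to the B type cyclins, whose destruction ends mitosis, and Foxm1 is a transcription factor of many genes of this phase. Myoblasts leave the cell cycle when they fuse into myotubes, and these genes are known to be low in differentiated muscle.

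The genes described here are Ccna2, Ccnb1, Ccnb2, Cdk1, Cdc20, Cdc25b, Cdc25c, Plk1, Foxm1 and Wee1. They were chosen by name, as the mitotic cyclins, their kinase and the regulators of that kinase, with earlier results of these data known. Every non-control probe that the array annotation gives to one of them was taken. These were 15 probes of 10 genes, among 39429 probes with 31829 names on the array. Of the 15, 13 passed the filter on dim probes and were tested, among 21589 tested in all.

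C2C12 is a mouse muscle cell line, and the study asked what exosomes from lipid-loaded muscle cells do to other muscle cells. Donor C2C12 myotubes were given either BSA, as the control, or 0.5 mmol/l palmitate, and the vesicles they released 9 h after palmitate had been taken away were named EXO-Post Palm and EXO-Post BSA. Other C2C12 cells received one or the other for 24 h, and their total RNA was labelled with Cy3 and hybridised to 1-colour Agilent arrays, 4 for EXO-Post BSA and 3 for EXO-Post Palm. The labels do not mention the 9 h and call the recipient cells myoblasts, whereas the methods call them myotubes. No group without exosomes is among the arrays, so each value below compares one kind of exosome with the other.

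The cell type was checked against marker genes. All 7 myotube markers (Myh3, Ckm, Acta1, Tnnt3, Actn2, Myog and Tmem8c) were well above background on all 7 arrays, and their summed signal, as log2 relative to the 75th percentile of the array, was 8.31 to 8.79 with EXO-Post BSA and 8.30 to 8.56 with EXO-Post Palm. Of the 5 myoblast markers, 4 were above background on all arrays, at a summed level of 5.47 to 5.79 with EXO-Post BSA and 5.69 to 6.15 with EXO-Post Palm, and Myf5 was above it on none. Of the genes listed for myoblasts, Des alone was higher with EXO-Post Palm by more than 0.03, at 0.50 (limma adjusted p = 0.446). Pax7, Myod1 and Cdh15 differed by -0.21, 0.03 and -0.04. Whether these genes part myoblasts from myotubes was not tested, nor was the part of Des in the results below. None of the leukocyte or adipocyte markers was above background on every array, and of the endothelial pair Pecam1 was and Cdh5 was not on any.

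Of the 4 slides, both groups were present on 2. Slide 1 carried the first EXO-Post Palm replicate with control replicates 1 and 2, and slide 3 carried EXO-Post Palm replicate 3 with control replicate 4. EXO-Post BSA replicate 3 and EXO-Post Palm replicate 2 each had a slide to itself. The share of probes well above background ran from 48.5 to 70.3% per array and no spot was saturated. Values are log2 intensities minus the 75th percentile of the same array, so that 0 is that percentile. A level of one probe cannot be set against that of another, since probes bind differently. Because the RNA came from whole cultures, more cells in mitosis and more mRNA per cell cannot be told apart.

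Of the 10 genes, 5 rose with EXO-Post Palm and none fell. All 13 tested probes had a positive log2 fold change, with a median of 2.44 where the median over all tested probes was -0.02. By limma with Benjamini-Hochberg adjustment over all tested probes, 7 of the 13 rose at an adjusted p under 0.05. They belong to Ccnb1, with all its 3 probes, and to Ccnb2, Cdc20, Cdc25c and Plk1. Probes 2 and 3 of Ccnb1, the Cdc25c probe and the second Foxm1 probe passed the filter through the EXO-Post Palm arrays alone, so they had to lie higher there, and the counts and the median that include them are descriptions. Of the 9 probes well above background on all 7 arrays, 5 rose when only such probes were tested, 1 each of Ccnb1, Ccnb2, Cdc20, Plk1 and Foxm1. That fit held 17717 probes, of which 118 were called higher and 32 lower. In the main fit of 21589 probes, 0.463% were called higher, 0.0695% lower and 0.533% in either direction. All 13 had an unadjusted p under 0.05 by limma, where 4.85% of all tested probes were higher at that level. Values did not overlap between the groups for 12 of the 13 probes, all higher with EXO-Post Palm, against 5.4% of all tested probes higher and 5.87% lower in that way. Because the genes were chosen with earlier results known, these shares are set beside them as a description. The calls depended on single arrays. With EXO-Post BSA replicate 1 left out none of the 13 was past the threshold by limma, although 12 kept an unadjusted p under 0.05, and leaving out EXO-Post BSA replicate 3 left 4 calls. Of the treated arrays, omission of replicate 1 left 2 calls and omission of replicate 3 left 4. With the filter on dim probes reapplied to the remaining arrays, a choice made after that count of 0 had been seen, 6 were called without EXO-Post BSA replicate 1.

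**Figure D1:**
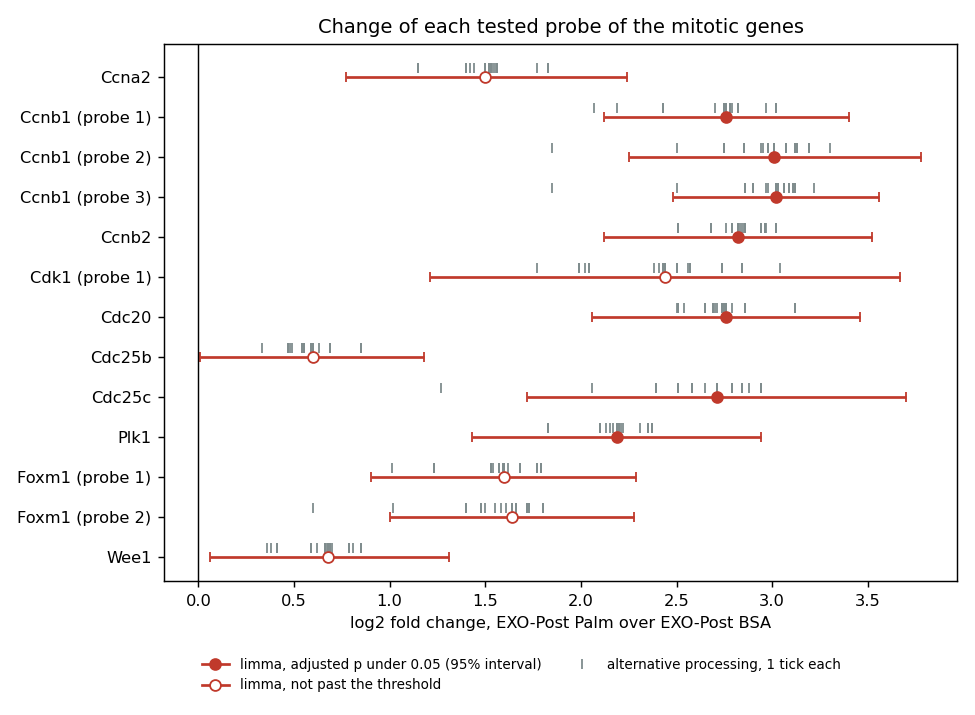
Log2 fold change of EXO-Post Palm over EXO-Post BSA for each of the 13 tested probes of the mitotic genes, with the 95% interval from limma as a bar and 1 grey tick for each alternative processing. Filled circles are past an adjusted p of 0.05. The B type cyclins, Cdc20 and Cdc25c sit at 2.71 to 3.02, Cdc25b and Wee1 at 0.60 and 0.68, and no tick lies below 0.

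Promoters of mitotic genes are known for a pair of elements near the start site, the CHR, bound by the DREAM and MuvB complexes, and CCAAT boxes, bound by NF-Y. Promoter windows from RefSeq on GRCm38.p6, 250 bases before to 50 after the annotated start, were used for 6 of the genes. The windows are shown so that the sequence next to the start can be read beside the change of each gene. Each line runs from 110 bases before the start to 20 after it, 5′ to 3′ on the strand of the gene. Capitals mark the letters TTTGAA of the CHR and CCAAT, each searched on both strands, so that ATTGG marks a CCAAT on the other strand.
Ccnb1: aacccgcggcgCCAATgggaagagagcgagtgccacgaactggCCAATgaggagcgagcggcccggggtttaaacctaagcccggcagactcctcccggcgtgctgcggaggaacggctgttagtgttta
Ccnb2: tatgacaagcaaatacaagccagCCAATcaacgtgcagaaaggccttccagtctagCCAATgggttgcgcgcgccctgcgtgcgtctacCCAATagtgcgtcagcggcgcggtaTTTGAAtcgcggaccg
Cdk1: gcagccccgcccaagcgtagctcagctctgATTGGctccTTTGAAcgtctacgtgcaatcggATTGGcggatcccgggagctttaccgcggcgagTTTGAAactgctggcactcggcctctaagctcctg
Cdc20: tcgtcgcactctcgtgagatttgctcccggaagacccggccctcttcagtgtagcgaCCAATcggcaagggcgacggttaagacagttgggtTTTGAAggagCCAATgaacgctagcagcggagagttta
Cdc25b: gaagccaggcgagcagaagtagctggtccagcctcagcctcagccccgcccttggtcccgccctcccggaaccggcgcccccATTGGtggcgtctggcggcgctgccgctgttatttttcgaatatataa
Plk1: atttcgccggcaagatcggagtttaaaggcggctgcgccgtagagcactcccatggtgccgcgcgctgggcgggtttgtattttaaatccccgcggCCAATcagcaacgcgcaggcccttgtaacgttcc

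These stretches lie at chr13:100786467-100786596 (minus strand) for Ccnb1, chr9:70421535-70421664 (minus) for Ccnb2, chr10:69352893-69353022 (minus) for Cdk1, chr4:118437324-118437453 (minus) for Cdc20, chr2:131186838-131186967 (plus) for Cdc25b and chr7:122159325-122159454 (plus) for Plk1. In the windows of 300 bases, CCAAT was found in all 6 and the CHR letters in 4, namely Ccnb2, Cdk1, Cdc20 and Plk1. Of all 32851 promoters in the table, 37.4% held CCAAT, 17.9% the CHR letters and 6.95% both. Cdk1 and Ccnb2 each had 2 CHR matches and 3 CCAAT matches, and the single CHR match of Plk1 lay after the start. Cdc25b, whose difference between the groups was the smallest of the 10, had 1 CCAAT and no CHR match, and Ccnb1, which rose 6.76-fold, had 2 CCAAT and no CHR match. A match is a run of letters and not a measured binding site. TTTGAA was the only spelling of the CHR that was searched, so a window without a match was not shown to lack the element. No windows are shown for Ccna2, Cdc25c, Foxm1 and Wee1. Any window on chromosome 18, where the Cdc25c probe lies, was left out, so Cdc25c was not searched.

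**Figure D2:**
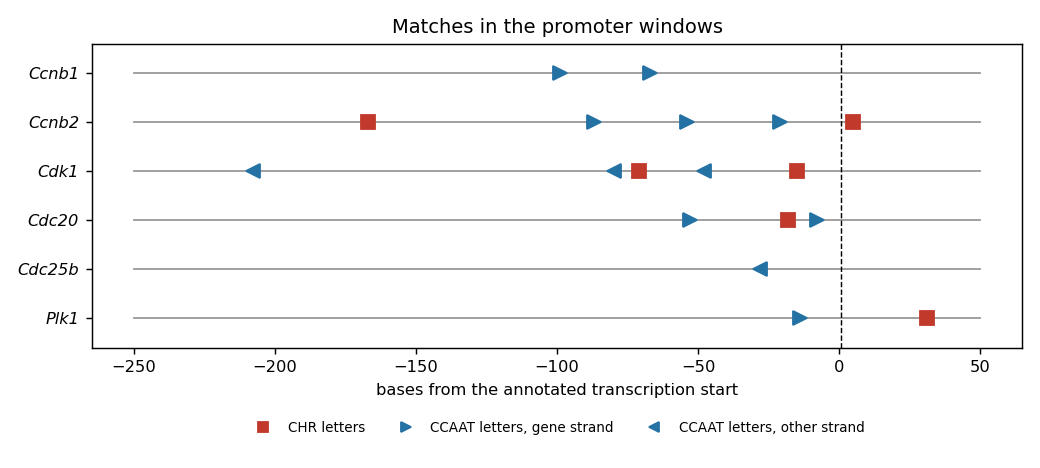
Position of each match in the promoter windows of 6 genes, in bases from the annotated start (dashed line); squares are CHR letters and triangles CCAAT letters, pointing right on the strand of the gene and left on the other. All 6 windows hold a CCAAT match, and those of Ccnb2, Cdk1, Cdc20 and Plk1 hold a CHR match as well.

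The B type cyclins gave the clearest difference. Ccnb1 encodes cyclin B1, the main activating partner of Cdk1 at entry into mitosis. Its brightest probe (chr13:101548722-101548781, mm9, minus strand) read -0.81, -0.72, -0.79 and -0.80 on the 4 EXO-Post BSA arrays and 1.86, 1.44 and 2.62 on the 3 EXO-Post Palm arrays. The control arrays lay within a narrow band and the lowest EXO-Post Palm array stood 2.16 above the highest of them. The mean went from -0.78 ± 0.04 (SD, n = 4) to 1.98 ± 0.60 (SD, n = 3), a log2 fold change of 2.76 with an SE of 0.282, or 6.76-fold with a 95% interval of 4.33 to 10.6 (limma adjusted p = 0.0108).

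The other probes of Ccnb1 lie elsewhere on the same transcript and were dim. They entered the test only through EXO-Post Palm, and their values add no independent support. Probe 2 read -4.41, -3.77, -3.95 and -5.10 with EXO-Post BSA and -1.40, -1.51 and -0.97 with EXO-Post Palm. Probe 3 read -4.51, -4.42, -4.27 and -4.90 against -1.63, -1.70 and -1.17. On neither probe did the groups overlap, but only 2 of the 4 control arrays were well above background for each. Their log2 fold changes were 3.01 and 3.02 with SEs of 0.335 and 0.237 (limma adjusted p = 0.0108 for both). With normexp background correction and quantile normalisation both came to 1.85, and that of the brightest probe to 2.07.

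Ccnb2 encodes cyclin B2, a second B type partner of Cdk1 that is found mostly at the Golgi. Its probe (chr9:70255671-70255730, mm9, minus strand) read -0.31, -0.64, 0.19 and -0.10 with EXO-Post BSA and 2.22, 2.38 and 3.23 with EXO-Post Palm. The gap between the groups was 2.03, wider than the whole range within either. The log2 fold change was 2.82 with an SE of 0.308, or 7.07-fold, with a 95% interval of 2.12 to 3.52 on the log2 scale (limma adjusted p = 0.0108). Within slide 1 the difference was 2.69 and within slide 3 it was 3.33, and for the brightest Ccnb1 probe these were 2.63 and 3.42.

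Ccna2 encodes cyclin A2, which acts from S phase until early mitosis. It read -0.59, -0.96, -0.56 and -0.46 with EXO-Post BSA and 0.81, 0.21 and 1.57 with EXO-Post Palm. The groups did not overlap, but the EXO-Post Palm arrays spread over more than the gap of 0.67 between the groups. The log2 fold change of 1.50 (SE 0.321, 95% interval 0.77 to 2.24) had an unadjusted p of 0.00128 and missed the threshold after adjustment (limma adjusted p = 0.122). It was past it without EXO-Post Palm replicate 2 (limma adjusted p = 0.0344) and in a trended and robust fit (0.0498).

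**Figure D3:**
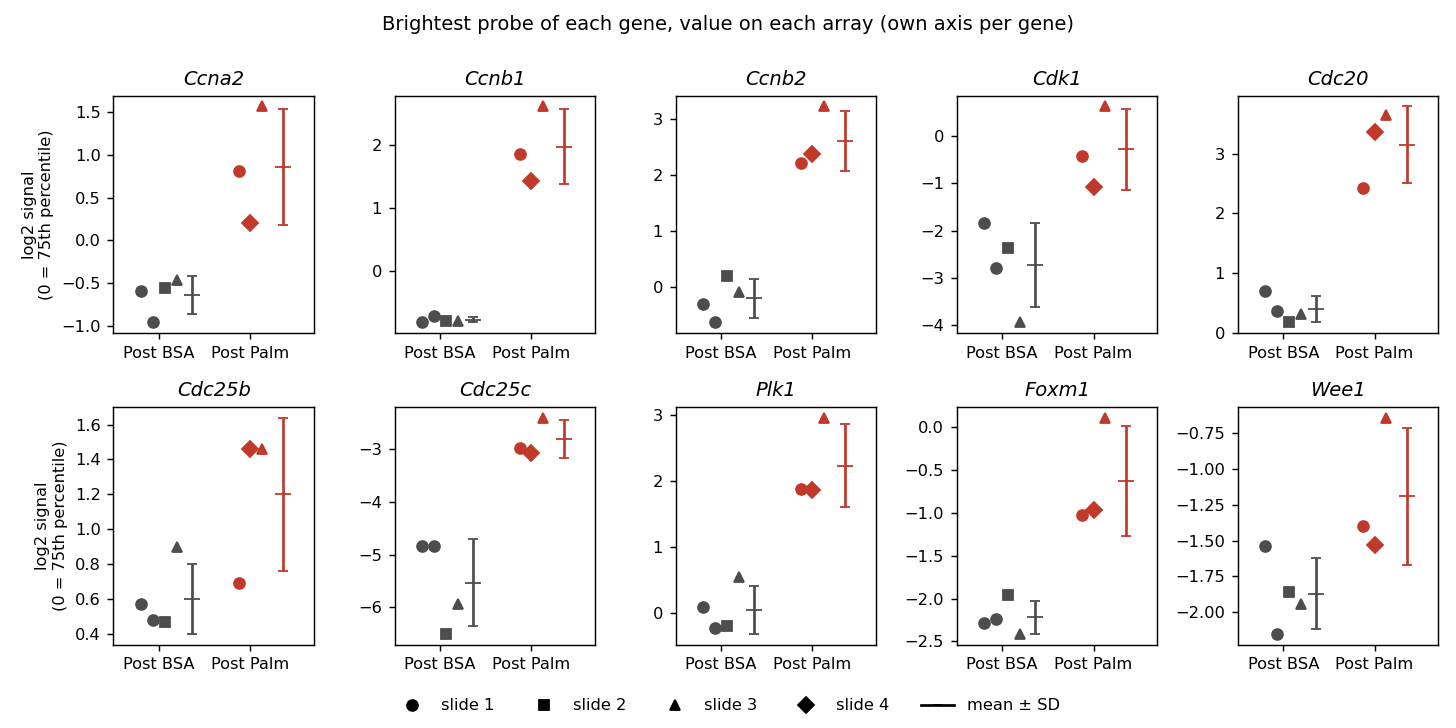
Log2 signal of the brightest probe of each mitotic gene on each array, relative to the 75th percentile of the array, with its own axis per gene; grey points are EXO-Post BSA (n = 4), red points EXO-Post Palm (n = 3), shapes are slides and bars are the mean ± SD. In 9 of the 10 genes all red points lie above all grey points, and in Cdc25b they overlap.

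Cdk1 was measured by 3 probes and only its brightest passed the filter. That probe (chr10:68801072-68801131, mm9, minus strand) read -1.83, -2.78, -2.36 and -3.94 with EXO-Post BSA and -0.41, -1.08 and 0.63 with EXO-Post Palm. The groups stood apart by 0.76, while the control arrays alone spread over more than that, EXO-Post BSA replicate 4 being the lowest. The means were -2.73 ± 0.89 (SD, n = 4) and -0.28 ± 0.86 (SD, n = 3). The difference of 2.44 was close to that of the B type cyclins, but its SE of 0.540 was wider, and it missed the threshold (95% interval 1.21 to 3.67, unadjusted p = 0.00159, limma adjusted p = 0.133). It was not past the threshold under any alternative that was run, with a lowest limma adjusted p of 0.0507. The difference was 1.90 within slide 1 and 4.57 within slide 3, which holds EXO-Post BSA replicate 4.

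The other Cdk1 probes were near or below background. Probe 2 read -5.21, -4.13, -6.33 and -6.22 with EXO-Post BSA and -4.47, -5.89 and -6.08 with EXO-Post Palm. Probe 3 read -4.79, -5.76, -6.87 and -6.68 against -6.61, -6.65 and -6.48. Both overlapped between the groups, and neither was tested, since probe 2 was well above background on 1 array of each group and probe 3 on 1 control array alone. Probe 3 (chr10:68801053-68801112, mm9) shares 41 of its 60 bases with the brightest probe. Each has 19 bases alone, at the start of the brightest probe and at the end of probe 3. They are shown because the filter kept one of these overlapping probes and not the other.
Cdk1 brightest probe, own bases: ttcttaatttcctacgtat
Cdk1 probe 3, own bases: tataattctgtatatgtgc

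The Cdc25 phosphatases did not move by like amounts. Cdc25c is a family member that acts on Cdk1 bound to cyclin B, and its probe was dim. It read -4.83, -4.83, -6.50 and -5.94 with EXO-Post BSA, where 2 of the 4 arrays were well above background, and -2.97, -3.07 and -2.40 with EXO-Post Palm, where all were. The groups stood apart by 1.76. The rise of 2.71 on the log2 scale, with an SE of 0.435, passed the threshold narrowly (limma adjusted p = 0.0424), for a probe that the filter admitted through EXO-Post Palm alone. With the tested probes kept it missed the threshold whichever array was left out (limma adjusted p 0.0514 to 0.169). Of the 10 alternatives run for it that kept all arrays, 3 gave the call. Quantile normalisation lost it (limma adjusted p = 0.0706), as did the authors' processed values (0.0785) and normexp background correction (0.0656), where the log2 fold change was 1.27.

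Cdc25b, which starts the activation of Cdk1 at the centrosome, was bright and overlapped between the groups. It read 0.57, 0.48, 0.47 and 0.90 with EXO-Post BSA and 0.69, 1.46 and 1.46 with EXO-Post Palm. EXO-Post Palm replicate 1 lay below EXO-Post BSA replicate 4. The log2 fold change of 0.60 (SE 0.256, 95% interval 0.01 to 1.18) missed the threshold (limma adjusted p = 0.488). Within slide 1 it was 0.16 and within slide 3 it was 0.56.

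Wee1, the kinase that opposes the Cdc25 phosphatases, gave values as close. It read -1.54, -2.15, -1.86 and -1.94 with EXO-Post BSA and -1.40, -1.53 and -0.64 with EXO-Post Palm. Only 0.01 separated the lowest EXO-Post Palm array from the highest EXO-Post BSA array. Its log2 fold change of 0.68 (SE 0.274, 95% interval 0.06 to 1.31) missed the threshold (limma adjusted p = 0.458).

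Plk1 encodes the polo-like kinase that promotes activation of Cdk1 and later steps of mitosis. Its probe (chr7:129313220-129313279, mm9, plus strand) read 0.08, -0.23, -0.21 and 0.54 with EXO-Post BSA and 1.88, 1.86 and 2.96 with EXO-Post Palm. The lowest EXO-Post Palm array was 1.32 above the highest control. Plk1 thus rose by 2.19 on the log2 scale with an SE of 0.332, or 4.56-fold with a 95% interval of 2.70 to 7.69 (limma adjusted p = 0.0349). Slides 1 and 3 gave 1.95 and 2.42. Plk1 stayed past the threshold in 2 of the 7 fits that left out an array, those without EXO-Post BSA replicate 4 and without EXO-Post Palm replicate 2, and its limma adjusted p reached 0.132 in the others.

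Cdc20, the activator of the anaphase-promoting complex, rose as far as the B type cyclins. Its probe (chr4:118105534-118105593, mm9, minus strand) read 0.69, 0.36, 0.17 and 0.32 with EXO-Post BSA and 2.43, 3.36 and 3.65 with EXO-Post Palm. Here EXO-Post Palm replicate 1 was the lowest of its group, and it too lay 1.74 above the highest control. The rise was 2.76 on the log2 scale with an SE of 0.308, or 6.78-fold with a 95% interval of 4.17 to 11.0 (limma adjusted p = 0.0108). The difference was 1.90 within slide 1 and 3.32 within slide 3, and with slide as a block the limma adjusted p was 0.0517, and 0.0555 for Cdc25c.

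Foxm1, the transcription factor among these genes, was measured by 2 probes with like differences. The brighter read -2.29, -2.24, -1.96 and -2.41 with EXO-Post BSA and -1.03, -0.97 and 0.11 with EXO-Post Palm. The second read -5.07, -5.24, -5.78 and -5.07 against -3.97, -3.82 and -3.15, and no control array was well above background. Neither probe overlapped between the groups and neither passed the threshold, although the brighter did with slide as a random block (limma adjusted p = 0.0468), in a trended and robust fit (0.0367) and where only probes well above background on all 7 arrays were tested (0.0295), and the second did with slide as a random block (0.0298). For the brighter the log2 fold change was 1.60 with an SE of 0.306 (limma adjusted p = 0.0802). For the second the log2 fold change was 1.64 with an SE of 0.281 (limma adjusted p = 0.0524). This was 3.13-fold, with a 95% interval of 2.01 to 4.87. Against a control mean raised to background, the EXO-Post Palm mean of that probe was 2.24-fold higher. Each control array entered that mean with the probe's own value or the array's lowest signal well above background, whichever was higher. The value of 2.24 leaves out the spread between arrays, so it is not a lower limit of the difference.

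The difference was not the same on the 3 EXO-Post Palm arrays. Taken over the brightest probes of the 10 genes, each minus its EXO-Post BSA mean, the median was 1.94 on replicate 1, 1.74 on replicate 2 and 3.02 on replicate 3. EXO-Post Palm replicate 3 was the highest of the group for 9 of the genes and replicate 2 for the other, and the lowest was replicate 2 for 6 genes and replicate 1 for 4. On the EXO-Post BSA arrays the same median lay between -0.09 and 0.04.

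Whether the regulators changed by other amounts than Cdk1 itself was asked array by array, as the log2 value of a gene minus that of Cdk1. Relative to Cdk1 the change was 0.31 for Ccnb1, 0.38 for Ccnb2, 0.32 for Cdc20, 0.27 for Cdc25c and -0.26 for Plk1. It was -0.94 for Ccna2, -0.85 for Foxm1, -1.76 for Wee1 and -1.85 for Cdc25b. Only Wee1 did not overlap between the groups, with a 2-sided exact permutation p of 0.0286, the smallest that the 35 splits of 7 arrays allow. None of the 9 comparisons passed after Benjamini-Hochberg adjustment, with 1 of the 9 at an unadjusted exact p under 0.05 and the lowest adjusted exact p at 0.257. The spread of Cdk1 among the EXO-Post BSA arrays enters each of these differences.

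**Figure D4:**
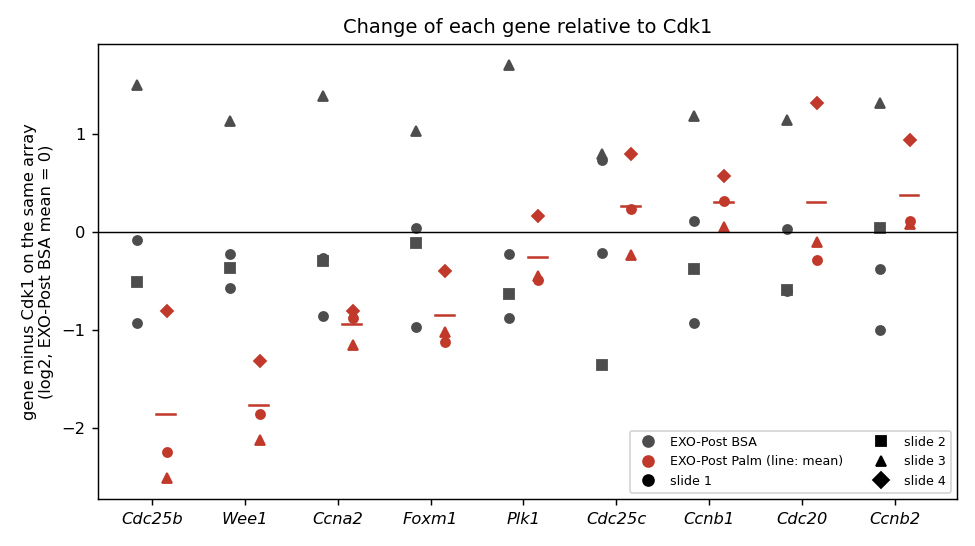
Log2 value of each of 9 genes minus that of Cdk1 on the same array, set so that the EXO-Post BSA mean is 0, with genes in order of the EXO-Post Palm mean (red line). Wee1 and Cdc25b lie lowest, at -1.76 and -1.85, and for the genes other than Wee1 the red and grey points overlap.

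Other genes that act on Cdk1, its cyclins or their removal were taken as a list of 53, each by its brightest probe. Of these 48 were tested, and 4 rose and none fell by limma at an adjusted p under 0.05, with 16 at an unadjusted p under 0.05, as were 10% of all tested probes. Their median log2 fold change was 0.07, with 26 fitted higher and 22 lower. Those that rose were Aurka, the kinase that activates Plk1, with a log2 fold change of 2.40 (limma adjusted p = 0.0495), Tpx2, which activates Aurka on the spindle, with 1.85 (0.0427), Ube2c, the ubiquitin-conjugating enzyme of the anaphase-promoting complex, with 2.16 (0.0462), and Cdkn3, a phosphatase of cyclin-dependent kinases, with 1.92 (0.0397). All 4 lost the call with any one array left out other than EXO-Post Palm replicate 2. Ube2c also lost it with slide as a block (limma adjusted p = 0.0566), and Cdkn3 with normexp (0.0999) and on the authors' processed values (0.0859).

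The calls lay in 3 of the 6 groups of that list. Of the 5 tested genes of the Polo and Aurora arm 2 rose, and Plk2 had the lowest value at -0.75. Of 15 tested genes of the anaphase-promoting complex and its enzymes only Ube2c rose, and the subunit Cdc27 had the lowest value at -0.71 (limma adjusted p = 0.222). Among 12 tested genes that bind or modify Cdk1, Cdkn3 rose, and Gadd45a had the lowest value at -0.56, which became 0.21 with slide as a block.

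No gene of the other groups passed the threshold. The 6 genes of the Greatwall arm, which holds back the phosphatase PP2A-B55 in mitosis, ran from -0.46 for Arpp19 to 0.76 for the Greatwall kinase Mastl. The 9 genes of the DREAM and MuvB complexes and Mybl2, of which Lin54 makes the contact with the CHR, ran from -1.15 for E2f4 to 0.89 for Rbl1, and Ccnf, the only tested gene of the further cyclins, stood at 0.73. An unadjusted limma p under 0.05 was found for Ccnf, for none of the 6 Greatwall genes and for 3 of the 9, of which Rbl1 was higher and Lin9 (-0.61) and Tfdp1 (-0.52) were lower; Lin9 and Tfdp1 are named here after their values were seen.

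**Figure D5:**
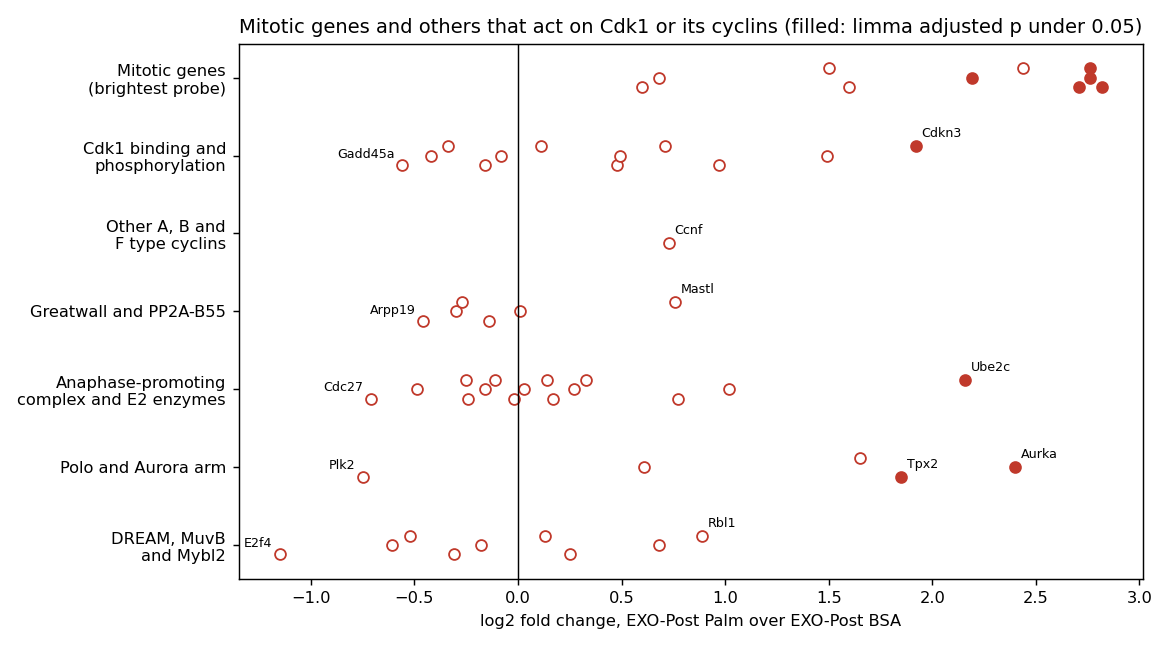
Log2 fold change of EXO-Post Palm over EXO-Post BSA for the 10 mitotic genes (top row) and the 48 tested genes of the list, 1 circle per gene and filled where past a limma adjusted p of 0.05. The top row lies between 0.60 and 2.82, while the median of the list is 0.07 and its filled circles are Cdkn3, Ube2c, Tpx2 and Aurka.

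Among 17125 tested genes outside both lists, those whose values followed Cdk1 most closely over the 7 arrays were Fam64a, 5730590G19Rik, Sgol1, Tk1 and the unnamed probe A_55_P2024391. Each gene was set to its own EXO-Post BSA mean, and the root mean square difference from Cdk1 was 0.32, 0.34, 0.35, 0.38 and 0.42 on the log2 scale. Fam64a encodes a mitotic regulator of the anaphase-promoting complex, Sgol1 protects centromeric cohesion and Tk1 is thymidine kinase of S phase. The same measure was 0.64 for Ccnb1, the nearest of the mitotic genes, and 1.48 for Cdc25b, the farthest. The outside genes were picked as the closest of 17125 and the mitotic genes were not, so these values cannot be ranked against each other. Some of the 7 arrays share a slide and all were scaled in the same way, so this likeness of pattern is a description.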

How the data were processed

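RNA of 7 C2C12 cultures was measured on 1-colour Agilent mouse arrays. The cell line tag in the labels differs between the samples and was read as C2C12 throughout. The authors deposited, for each array, Feature Extraction output with a processed intensity per spot, already background-subtracted but on each array's own scale, together with processed log2 values. The methods name Agi4x44PreProcess and limma, without the settings. File headers name Feature Extraction 10.7.3.1, or 11.5.1.1 for EXO-Post BSA replicate 3, whose gene names were taken from the other arrays by probe. Rows of the deposited log2 values were matched to spots by order (rank correlation with the array intensities 0.9936 to 0.9986).

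Log2 of the processed intensity minus the 75th percentile of each array was used. Control and outlier spots were left out and spots of a probe averaged. Probes were tested that stood well above background in at least 75% of either group's arrays. The groups were compared in limma 3.58.1 (R 4.3.3, data.table package 1.17.8, jsonlite 2.0.0) with no covariate and Benjamini-Hochberg adjustment over 21589 probes, 2-sided at 0.05. The procedure was tested on simulated data. Exact permutation tests used the 35 splits of 7 arrays. Positions of probes come from the array annotation (mm9).

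The genes named were all 10 mitotic genes with every probe, the pathway genes past the threshold, the highest and lowest of each of the 6 pathway groups, and the 5 tested genes nearest to Cdk1. The genes and lists were chosen with earlier results of these data known. Arrays are labelled biological replicates, and what was replicated is not stated, so p-values measure the spread between these arrays, and their number limits the precision. Alternatives covered normalisation, background correction, the filter, slide, replicate number, the test and each array left out. For normexp the median spot signal was used, as 1 array carries no mean signal.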

Additional observations from a re-analysis of the deposited data

How the results depend on the processing

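All 13 mitotic probes kept a positive log2 fold change under each of the 25 alternatives in which they were fitted, but the calls did not hold throughout. No probe on the array passed the threshold with no filter on dim probes (1900 at an unadjusted limma p under 0.05), with the replicate number as a block (1933) or by the methods' t-test after Benjamini-Hochberg adjustment (2108). The counts were therefore 0 for the mitotic probes (11 unadjusted under each) and 0 for the pathway list (13 under each). The deviations of same-numbered arrays correlated at 0.122, -0.150 and -0.148, and the first of these pairs also shared a slide. So few values cannot tell whether the replicate numbers pair the arrays, and the labels do not say what was replicated. The 0 calls with that block are therefore given as found. Pairs on the same slide correlated at 0.122, 0.307 and 0.177. Over all tested probes 181 were called with slide as a random block and 173 with a trended and robust fit, against 115. Those 115 were 100 higher and 15 lower, and with normexp 97 were higher and 31 lower. Gadd45a turned to 0.21 with slide as a block.

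With each array left out in turn and the tested probes kept, 0 to 7 mitotic probes, 0 to 202 of all probes and 0 to 4 pathway genes were called. The 0 came without EXO-Post BSA replicate 1, where the lowest adjusted p of a mitotic probe, by limma, was 0.0565. An alternative chosen after that 0 had been seen, in which the filter was also reapplied to the remaining arrays, gave 2 to 7 mitotic probes, 4 to 228 of all probes and 0 to 4 pathway genes. Over all probes it gave 63, 64, 61 and 69 without EXO-Post BSA replicates 1, 2, 3 and 4, and 7, 228 and 4 without EXO-Post Palm replicates 1, 2 and 3. Under it the count without EXO-Post BSA replicate 1 was 6, so whether that array decides the calls depends on the filter. With normexp the log2 fold change of Cdc25c came to 1.27, of the second Foxm1 probe to 0.60 and of Wee1 to 0.36. The causes were not tested.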
